A study of Mus musculus with 2 samples.

Results

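The vessel cells of mouse palatal gingiva, the blood and lymphatic endothelium and the contractile cells that wrap it, made up 156 of the 6165 barcodes with at least 800 detected genes in 2 single-cell RNA-seq libraries. They were chosen by measured values. Barcodes in which *Krt5* and *Krt14* together took 0.5% or more of the UMIs (unique molecular identifiers, 1 per captured mRNA molecule) were set aside as epithelium. A remaining barcode was called endothelial with 4 or more UMIs of *Pecam1*, *Cdh5*, *Kdr*, *Emcn* and *Egfl7* together. It was called mural when it was not endothelial, held 8 or more UMIs of *Rgs5*, *Acta2*, *Notch3*, *Tagln* and *Myh11* together, and fewer than 2 UMIs of the fibroblast genes *Dcn* and *Lum*. This gave 66 endothelial and 90 mural barcodes. Because these genes chose the cells, their levels are given as a description without a test.

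Both libraries came from female wild type C57BL/6 mice (C57BL/6J in the methods of the study) of 8 to 12 weeks whose palatal gingiva received 3 µl of a ligand at 1 µg/ml, held under an oral appliance for 1 h, and was collected on day 4. One library followed CpG ODN, an unmethylated DNA oligonucleotide that engages TLR9, and the other followed lipopolysaccharide of *P. gingivalis* (LPS), which engages TLR2 and TLR4. Each held equal cell numbers from 4 mice, pooled without a mark of the mouse, so there was 1 library per ligand and no untreated library, and every mouse had carried a ligand and an appliance. No test between ligands was possible: intervals below are 95% intervals that cover counting error only, and a ratio between the libraries cannot be told apart from a difference between 2 pools or 2 digestions.

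Endothelial cells line every vessel and differ by segment: arterial cells carry Notch ligands, capillary cells exchange fatty acids and water, postcapillary venules carry the selectins that slow leukocytes, and lymphatic cells depend on the transcription factor PROX1. Mural cells sit on the outer face. Pericytes on capillaries are held there by PDGF-B from the endothelium acting on PDGFRB, and smooth muscle cells of arteries and veins carry the contractile apparatus that sets the calibre of the vessel.

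The libraries held 72173148 UMIs in 6219 barcodes after CpG ODN and 38656738 UMIs in 2016 barcodes after LPS. Vessel barcodes took 0.765% and 1.21% of those UMIs. Endothelial cells had a median of 3246 UMIs in the CpG ODN library and 5439 in the LPS library, and mural vessel cells 4872 and 10085, so LPS cells were the deeper. The libraries shared 5 barcodes, of which 0 were vessel cells. Genes of other cells differed by type. Leukocyte genes reached at most 2.48 of 10000 UMIs in any vessel cell, with *Ptprc*, *Cd79a*, *Cd3e* and *Tyrobp* at 0, while the median cell held 2.02 to 4.25 epithelial UMIs per 10000 across kinds and libraries. Fibroblast genes reached 42.8 per 10000 in an endothelial and 54.0 in a mural vessel cell, and hemoglobin and other red cell genes 2718 in 1 CpG ODN mural vessel cell. The part of these RNAs in any result was not tested.

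Endothelial cells were 43 of 4888 barcodes after CpG ODN, a share of 0.880% (Clopper-Pearson interval 0.637 to 1.18), and 23 of 1277 after LPS, a share of 1.80% (1.15 to 2.69). Mural barcodes were 70 after CpG ODN, 1.43% (1.12 to 1.81), and 20 after LPS, 1.57% (0.959 to 2.41). The endothelial share was the higher in the LPS library, with intervals that overlapped slightly, and the mural shares lay within each other's intervals. Counted against the barcodes low in *Krt5* and *Krt14* alone, 1385 and 426, endothelial cells were 3.11% and 5.40% and mural barcodes 5.05% and 4.70%. Tissue digestion sets how many cells of each kind are recovered, and its part in these shares was not tested.

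**Figure D1:**
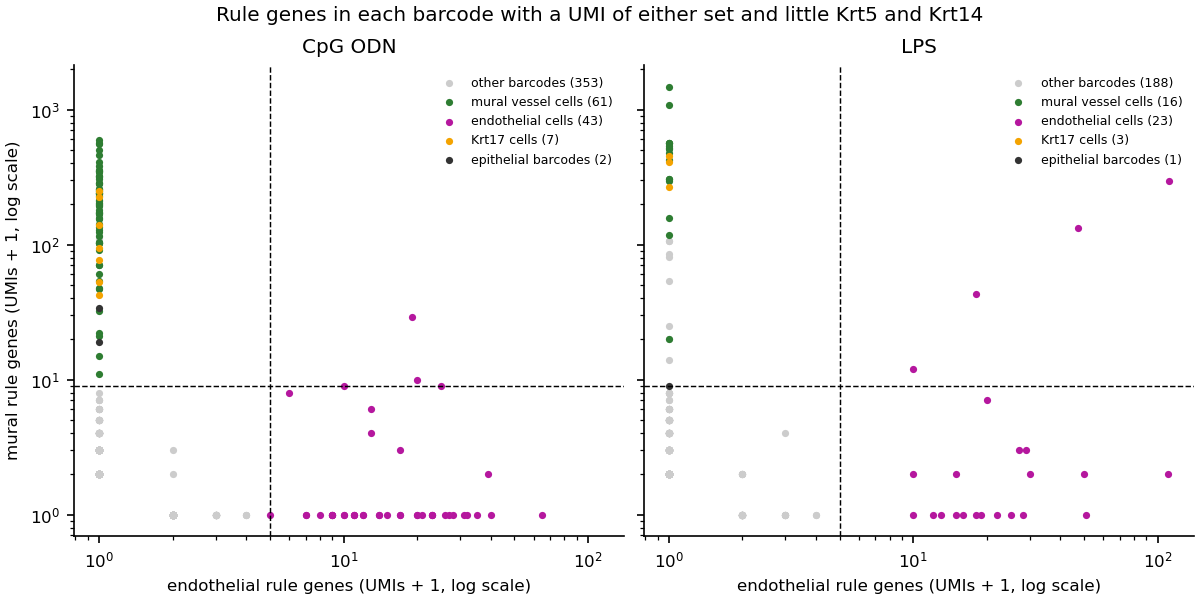
Sum of the endothelial rule genes (horizontal axis, UMIs) against the sum of the mural rule genes (vertical axis, UMIs) in each barcode with at least 800 genes, little *Krt5* and *Krt14* and a UMI of either set, on log axes with 1 added, 1 panel per library and dashed lines at the limits of 4 and 8 UMIs. Mural barcodes lie along the vertical axis and most endothelial cells along the horizontal one, and 8 endothelial cells with 8 or more mural UMIs stand between them.

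Few barcodes lay near the limits. Exactly 3 endothelial UMIs, just outside, were found in 3 CpG ODN and 2 LPS barcodes, and exactly 4, just inside, in 1 and 0. Among barcodes that met the other limits of the mural rule, exactly 7 mural UMIs were found in 1 and 4 and exactly 8 in 0 and 1. The median sum of endothelial UMIs was 14 in the CpG ODN and 19 in the LPS endothelial cells, and that of mural UMIs 185.5 and 438.5 in the mural barcodes. A further 5 CpG ODN and 8 LPS barcodes passed the mural sum but held 2 or more UMIs of *Dcn* and *Lum* and were left out.

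Endothelial genes that the rule did not use were found in the endothelial cells, among them *Cldn5* and *Ramp2* with 263 and 283 UMIs and 0 in mural vessel cells, while the mural rule took in 13 barcodes of other makeup. Of the 90 mural barcodes, 3 were epithelial by their keratin content, 2 after CpG ODN and 1 after LPS. The LPS one held 93004 UMIs, 31.9% of all mural UMIs of its library, and its 8 mural UMIs were all *Notch3*, a gene with a UMI in 33.7% of keratinocytes. A further 10 barcodes, 7 and 3, held *Krt17* and *Krt14* beside smooth muscle genes and are described apart. The other 77, 61 after CpG ODN and 16 after LPS, are called mural vessel cells here and carry the mural values that follow.

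*Pecam1* (ENSMUSG00000020717), the junction protein CD31, had 0, 4 and 26 UMIs in the lowest, median and highest of the 43 CpG ODN endothelial cells and 2, 6 and 35 in the 23 LPS cells. Over the pooled cells this was 1058 and 1110 CPM (UMIs per 1000000 UMIs of those cells), a ratio of CpG ODN to LPS of 0.952 (0.781 to 1.16). A UMI of *Pecam1* was found in 95.5% of endothelial and in 0 mural vessel cells, values set in part by the rule, which used this gene. It was found in 0.556% of keratinocytes, which had median depths of 12180 and 24367 UMIs. *Cdh5* (ENSMUSG00000031871), VE-cadherin of the endothelial junction, ran from 0 through 2 to 7 UMIs after CpG ODN and from 0 through 3 to 40 after LPS. *Emcn* (ENSMUSG00000054690), a sialomucin of veins and capillaries, had 0, 2 and 10 UMIs after CpG ODN and 0, 2 and 20 after LPS. The cell ranges of all these genes overlapped between the libraries.

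Among mural vessel cells, *Acta2* (ENSMUSG00000035783), smooth muscle alpha-actin, had 0, 94 and 368 UMIs after CpG ODN and 1, 238.5 and 754 after LPS. Pooled, this was 22581 and 24087 CPM, a ratio of 0.938 (0.902 to 0.975). It was detected in 94.8% of mural vessel cells against 7.75% of fibroblasts, which had median depths of 4024.5 and 8766 UMIs. *Myh11* (ENSMUSG00000018830), the smooth muscle myosin heavy chain, had 0, 22 and 67 UMIs after CpG ODN and 2, 42.5 and 139 after LPS. *Rgs5* (ENSMUSG00000026678), a G-protein regulator typical of pericytes, was not shared by all of them. It had a UMI in 25 of 61 CpG ODN and 13 of 16 LPS cells, and its highest cell held 77 and 134 UMIs. Its pooled level was 1655 and 2607 CPM, a ratio of 0.635 (0.557 to 0.723), and the ranges over cells overlapped.

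The proximal promoters of *Acta2* and *Myl9*, the myosin regulatory light chain, are shown because *Acta2* is a gene of the mural rule and *Myl9* one of the contractile genes most unequal between the kinds, and because contractile genes are known targets of serum response factor. The sequences are RefSeq promoters of build GRCm38.p6, 250 bases before to 50 after the annotated start, on the strand of the gene, at chr19:34255324-34255623 (minus strand) and chr2:156775214-156775513 (plus strand). Capitals mark CArG boxes, the sites that serum response factor binds, with at most 1 C or G allowed in the stretch of A and T.
Acta2: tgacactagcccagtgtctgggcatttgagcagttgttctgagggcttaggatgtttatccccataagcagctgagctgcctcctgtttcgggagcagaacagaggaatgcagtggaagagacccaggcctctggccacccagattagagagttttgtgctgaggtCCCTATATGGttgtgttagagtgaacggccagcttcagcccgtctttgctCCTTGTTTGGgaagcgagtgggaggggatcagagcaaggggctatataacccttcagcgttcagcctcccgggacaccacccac
Myl9: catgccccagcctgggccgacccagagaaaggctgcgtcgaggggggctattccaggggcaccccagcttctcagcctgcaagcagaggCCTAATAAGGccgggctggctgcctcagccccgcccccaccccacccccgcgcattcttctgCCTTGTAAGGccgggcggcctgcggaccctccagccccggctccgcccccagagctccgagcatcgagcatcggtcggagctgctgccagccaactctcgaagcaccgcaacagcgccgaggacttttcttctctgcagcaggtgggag
The matches in *Acta2* begin 84 and 34 bases before the start, and those in *Myl9* 161 and 99 bases before it. Both strands were searched, on which the motif reads alike. Of 32851 promoters of this length, 9.98% held a match of this form and 1.63% one with A and T alone. Of 18 contractile genes listed, 15 had a promoter in the table and 1, *Myl9*, held a match. Of 26 endothelial identity genes, 11 had a promoter and 2, *Eng* and *Tek*, held a match.

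Clustering of the 66 endothelial cells gave 5 groups, which are described by their leading genes. The leading genes also formed the groups, so their levels carry no test. The largest, of 25 cells, was venous-like. *Selp*, P-selectin, which slows leukocytes on the venule wall, had 427 UMIs in 22 of its cells and 0 in every other endothelial cell. *Sele* (E-selectin) had 110 UMIs in 16 of these cells, *Ackr1*, the chemokine-binding receptor of venules, 49 in 14, and *Vwf*, von Willebrand factor, 106 in 23. *Lrg1*, a secreted glycoprotein that acts on TGF-beta signalling in vessels, had 116 UMIs in 23 cells.

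A group of 13 cells was led by *Plvap*, the diaphragm protein of fenestrated capillaries and venules, with 148 UMIs in 12 cells. *Flt1* and *Kdr*, the VEGF receptors, had 153 UMIs in 13 and 65 in 12 of them, and *Col15a1*, a basement membrane collagen, 36 in 10. A group of 9 cells was led by *Cd36*, the fatty acid transporter, with 147 UMIs in all 9. *Gpihbp1*, which anchors lipoprotein lipase to capillaries, had 72 UMIs and *Fabp4*, a fatty acid binding protein, 605, each in all 9. The *Cd36* group was capillary-like. The *Plvap* group was left unnamed, since *Cd36* had 0 UMIs and *Gpihbp1* 3 in it and *Fabp4* stood below its level in the venous-like group. The *Cd36* group also held pericyte genes, with 416 UMIs of *Rgs5* in 6 cells, 59 of the potassium channel gene *Kcnj8* in 5 and 19 of *Pdgfrb* in 4.

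The arterial-like group of 10 cells held *Sox17* (22 UMIs in 6 cells), a transcription factor of arterial fate, *Sema3g* (19 in 7) and *Fbln5* (20 in 7), an elastic fibre protein. The chemokine *Cxcl12* had 109 UMIs in 5 of these cells. The lymphatic-like group of 9 cells held *Prox1* (58 UMIs in 8 cells), the hyaluronan receptor *Lyve1* (190 in 8), *Mmrn1* (321 in 9), *Flt4*, the receptor of VEGF-C (89 in 8), and *Reln* (92 in 8). *Ccl21a*, the chemokine that draws dendritic cells into lymphatics, had 1028 UMIs in all 9, though reads of its near-identical copies could have been assigned to it.

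**Figure D2:**
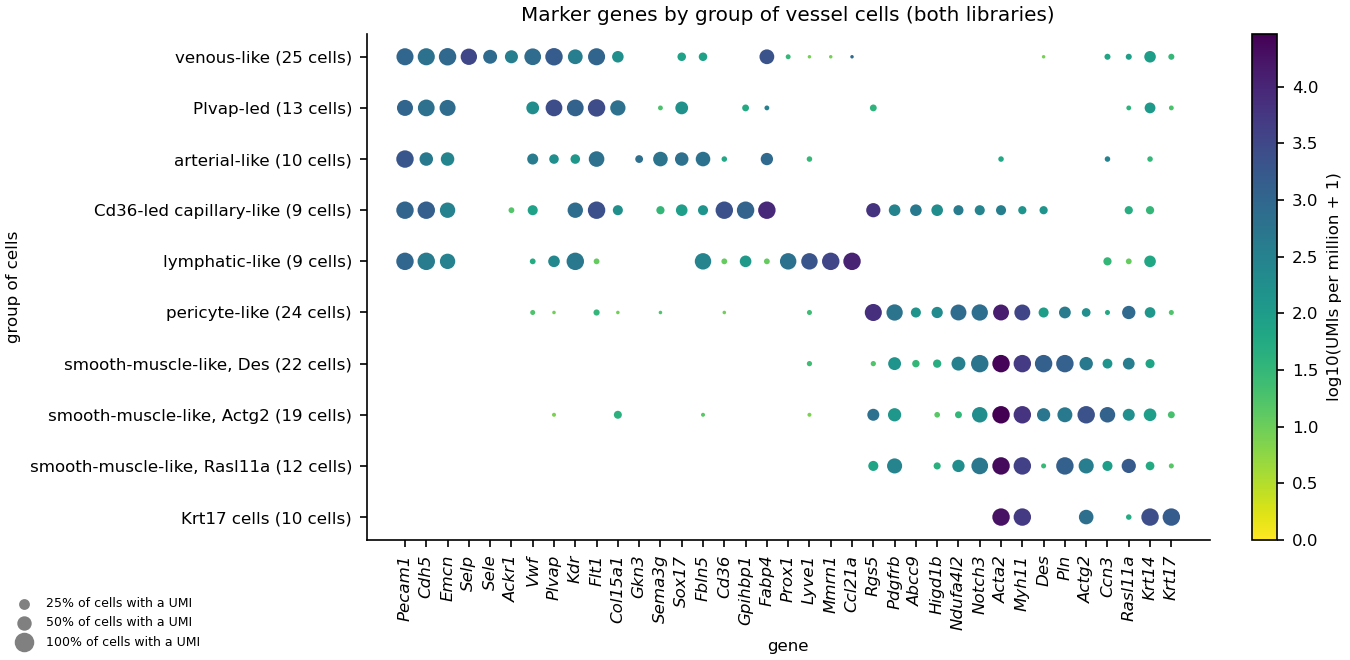
Marker genes (horizontal axis) in the 5 endothelial and 5 mural groups (vertical axis), both libraries summed. The colour of a point is the log10 of CPM plus 1 and its size the share of cells with a UMI. Each group holds its own block, such as *Selp*, *Sele* and *Ackr1* in the venous-like row and *Prox1*, *Mmrn1* and *Lyve1* in the lymphatic-like row. The pericyte genes *Rgs5* and *Pdgfrb* appear in the *Cd36* row as well.

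Every group had cells from both libraries. The venous-like group was 18 of 43 endothelial cells after CpG ODN (41.9%, interval 27.0 to 57.9) and 7 of 23 after LPS (30.4%, 13.2 to 52.9). The *Plvap*-led group was 10 and 3 cells, the arterial-like group 7 and 3, and the lymphatic-like group 5 and 4. The *Cd36*-led group was 3 of 43 (6.98%, 1.46 to 19.1) against 6 of 23 (26.1%, 10.2 to 48.4). The intervals overlapped for each group. Over 18 clustering settings the *Cd36*-led and the lymphatic-like cells stayed together, in clusters of up to 30 and 12 cells, whereas at the least favourable setting only 10 of the 25 venous-like and 5 of the 10 arterial-like cells shared a cluster.

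Single cells stood far from the rest. A CpG ODN endothelial cell of 15131 UMIs held all 4099 endothelial *Glycam1* UMIs, 27.1% of its RNA. GLYCAM1 is a sulphated mucin of high endothelial venules, the vessels by which lymphocytes enter lymph nodes. The cell also held 111 UMIs of *Ccl21a*, 19 of *Selp*, 5 of *Ackr1* and 2 of *Fut7*, which encodes an enzyme that makes selectin ligands, and 0 of *Chst4*, *Madcam1*, *Prox1* and *Mmrn1*. An LPS endothelial cell of 24792 UMIs held 183 of the 224 *Selp* UMIs and 73 of the 81 *Csf3* UMIs of its library. It also held 13 UMIs of *Dcn* and 66 of *Bgn*, genes of connective tissue, and whether it was 1 cell or 2 was not tested.

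The mural barcodes also fell into 5 groups. The pericyte-like group of 24 cells held 834 UMIs of *Rgs5* in 23 cells, 71 of *Pdgfrb*, the receptor of PDGF-B, in 21 and 97 of *Ndufa4l2*, a mitochondrial subunit gene typical of pericytes, in 20. Of 15 listed pericyte genes, 9 stood out in it, without *Kcnj8*, *Vtn* and *Steap4*. Between the kinds, 8 of 12 pericyte genes tested were higher in mural vessel cells. Those 3 were higher in endothelial cells, though 0 of them in both libraries. All genes were higher in mural vessel and endothelial cells in 17.8% and 19.9%. Of the 60 endothelial *Kcnj8* UMIs, 17 after CpG ODN and 42 after LPS lay in endothelial cells with 8 or more mural UMIs. *Vtn* (43 endothelial and 6 mural UMIs) and *Steap4* (22 and 9) reached 30 UMIs through the endothelial cells. *Cspg4* (4 and 148) and *Cox4i2* (11 and 144) did so through the mural ones. These counts are therefore no support by themselves. *Acta2* stood at 12792 CPM in the pericyte-like group, against 22220 to 29348 in the 3 smooth-muscle-like groups. Of these, 22 cells were led by *Des*, the muscle intermediate filament desmin (168 UMIs in 22 cells), and *Pln*, phospholamban, which restrains the calcium pump (162 in 22). A group of 19 cells was led by *Actg2*, the gamma-actin of smooth muscle (326 UMIs in 19), with *Cnn1*, calponin (275 in 19), and the matricellular gene *Ccn3* (178 in 15). A group of 12 cells was led by *Rasl11a*, a small GTPase gene (117 UMIs in 8), and *Crispld2* (85 in 12). These groups moved with the clustering setting. At some settings most *Des*-led and *Rasl11a*-led cells joined in 1 cluster of up to 35 cells. The least favourable setting kept 14 of the 24 pericyte-like and 12 of the 22 *Des*-led cells in 1 cluster each. It kept 16 of the 19 *Actg2*-led and 7 of the 12 *Rasl11a*-led cells.

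The last mural group was the 10 cells with *Krt17*. They held 91 UMIs of *Krt17* and 151 of *Krt14* in all 10 cells, 28 of *Krt5* in 9 and 16 of *Trp63*, the p63 factor of basal epithelium, in 9. They also held 1114 UMIs of *Acta2*, 310 of *Myh11* and 212 of *Cnn1* in all 10, and 0 of *Rgs5*, *Notch3* and *Pdgfrb*. These cells had been set apart by 3 or more UMIs of *Krt17* and 0 of *Notch3* and *Pdgfrb*, so those values were fixed by the choice. *Acta2* and *Myh11* are genes of the mural rule. Keratin beside smooth muscle actin is the pattern of myoepithelial cells, which squeeze secretion from glands, and the group is called myoepithelial-like. Its cells stayed together at all 18 clustering settings, for which myoepithelial genes were among those used. Pericyte-like cells were 17 of 68 clustered CpG ODN cells (25%, 15.3 to 37.0) and 7 of 19 LPS cells (36.8%, 16.3 to 61.6), and the intervals of the other mural groups overlapped as well.

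Set against each other over both libraries, the endothelial and mural vessel cells differed widely. Of 4229 genes with at least 30 UMIs, 843 (19.9%) were higher in endothelial and 753 (17.8%) in mural vessel cells. As the kinds were separated on the same counts, the gene lists below only describe them. All 25 endothelial identity genes tested were higher in endothelial cells and all 18 contractile genes in mural vessel cells. *Tpm2*, a tropomyosin, had 8 endothelial and 3710 mural UMIs, and *Myl9* had 20 and 4174. *Cnn1* had 0 and 405, at least 108-fold higher in mural vessel cells by a floor of 3 UMIs over the kind. *Cldn5*, the claudin of endothelial tight junctions, had 263 and 0, at least 109-fold higher in endothelial cells. The other mural genes of highest ratio were *Lmod1*, *Fbxl22*, *Actg2*, *Synpo2*, *Pln*, *Palld* and *Crispld2*, from 79.7-fold or more to 171-fold, mostly genes of the contractile filaments and their anchors. On the endothelial side they were *Ly6a*, *Adgrf5*, *Plvap*, *Ly6c1*, *Ctla2a*, *Ly6e*, *Fabp4*, *Ccl21a*, *Selp* and *Glycam1*, and *Ly6a*, a surface antigen gene, had 425 endothelial UMIs and 1 mural UMI.

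Ligands and receptors were split between the kinds. *Pdgfb* was 3.12-fold higher in endothelial cells (1.77 to 5.72) and its receptor *Pdgfrb* 5.41-fold higher in mural vessel cells, with 19 endothelial and 128 mural UMIs. *Kdr*, *Tek* and *Tie1*, receptors for VEGF and angiopoietins, had 212, 69 and 98 endothelial UMIs and 0 mural UMIs. *Pgf*, placental growth factor and a ligand of FLT1, was higher in mural vessel cells by 4.66-fold, on 5 endothelial and 29 mural UMIs. Of 9 VEGF and angiopoietin genes tested, 7 were higher in endothelial and 1 in mural vessel cells, where 19.9% and 17.8% of all genes were. *Kdr* is a rule gene, and *Tek*, *Tie1* and *Flt4* reached the minimum of 30 UMIs through the endothelial cells alone. The count is therefore no support by itself.

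Of 9 Notch genes, 7 were higher in mural vessel cells and 2 in endothelial cells, where 17.8% and 19.9% of all genes were. *Hey2* (2 endothelial and 48 mural UMIs) and *Heyl* (4 and 26) reached the UMI minimum through the mural vessel cells. *Jag2* reached it through the endothelial cells, and *Notch3* chose mural cells, so the count is no support by itself. *Notch3*, a rule gene, was 9.94-fold higher in mural vessel cells, and the targets *Hey2* and *Hes1* were 19.3-fold and 3.25-fold higher. *Notch1* was 5.38-fold higher in endothelial cells (3.55 to 8.44), and the ligand gene *Jag2* had 33 endothelial and 0 mural UMIs. The ligand gene *Jag1* was 2.25-fold higher in mural vessel cells, on 26 and 73 UMIs. Genes of vascular tone were divided in the same way. *Edn1*, which encodes the constrictor endothelin-1, had 50 endothelial and 0 mural UMIs, and its receptor gene *Ednra* 2 and 47. *Nos3*, the endothelial nitric oxide synthase, had 32 and 0, while *Gucy1a1*, a subunit of the nitric oxide receptor, was 4.35-fold higher in mural vessel cells and *Pde5a*, which breaks down its product cyclic GMP, 47.8-fold higher.

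Interferon-stimulated and antigen-presentation genes were higher in endothelial cells, in 12 of 12 and 5 of 5 genes tested, where 19.9% of all genes were. Some members, such as *Ifit1* (35 and 1 UMIs), *Irgm1* (33 and 3) and *Psmb8* (63 and 0), reached the minimum of 30 UMIs through the endothelial cells, so these counts are no support by themselves. The 12 interferon-stimulated genes were above 2-fold in each library taken alone. *Ifitm3*, a restriction factor against viral entry, had 2, 9 and 72 UMIs in the lowest, median and highest CpG ODN endothelial cell and 1, 16 and 68 in the LPS cells. It was detected in every endothelial cell and its pooled level was 5.63-fold that of mural vessel cells (4.89 to 6.52). *H2-D1* and *B2m*, the heavy and light chain of MHC class I, were 8.57-fold (6.70 to 11.1) and 7.07-fold (5.62 to 8.99) higher. *Iigp1*, an interferon-inducible GTPase gene, was 15.7-fold higher (9.40 to 27.9).

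Immediate early genes, which respond within minutes to stimuli including tissue digestion, were the more abundant in mural vessel cells for 6 of 16 genes and in endothelial cells for 0, where 17.8% and 19.9% of all genes were. *Nr4a1* was 5.27-fold, *Ier2* 3.10-fold, *Btg2* 2.96-fold and *Atf3* 2.69-fold higher, and 4 of the 6 were past 2-fold in each library. *Jun* stood at a pooled ratio of endothelial to mural of 0.995 (0.896 to 1.11), but the libraries differed in direction. It had 2165 endothelial and 1539 mural CPM after CpG ODN and 1189 and 2027 after LPS. Basement membrane genes were divided. *Sparcl1*, a matricellular protein gene, was 4.36-fold higher in mural vessel cells and *Nid1*, nidogen, 5.09-fold higher in endothelial cells (2.67 to 10.5), while *Col4a1*, a chain of type IV collagen, had a ratio of endothelial to mural of 1.19 (0.993 to 1.44). Of 14 TGF-beta and BMP genes, 8 were higher in endothelial and 3 in mural vessel cells, against 19.9% and 17.8% of all genes. Those higher in mural vessel cells were *Tgfb3*, *Id2* and *Id3*. Past 2-fold in each library were 7 and 2. *Acvrl1*, an endothelial type I receptor gene (60 and 4 UMIs), and *Bmp4* (39 and 0) reached the UMI minimum through the endothelial cells. This count is therefore no support by itself.

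**Figure D3:**
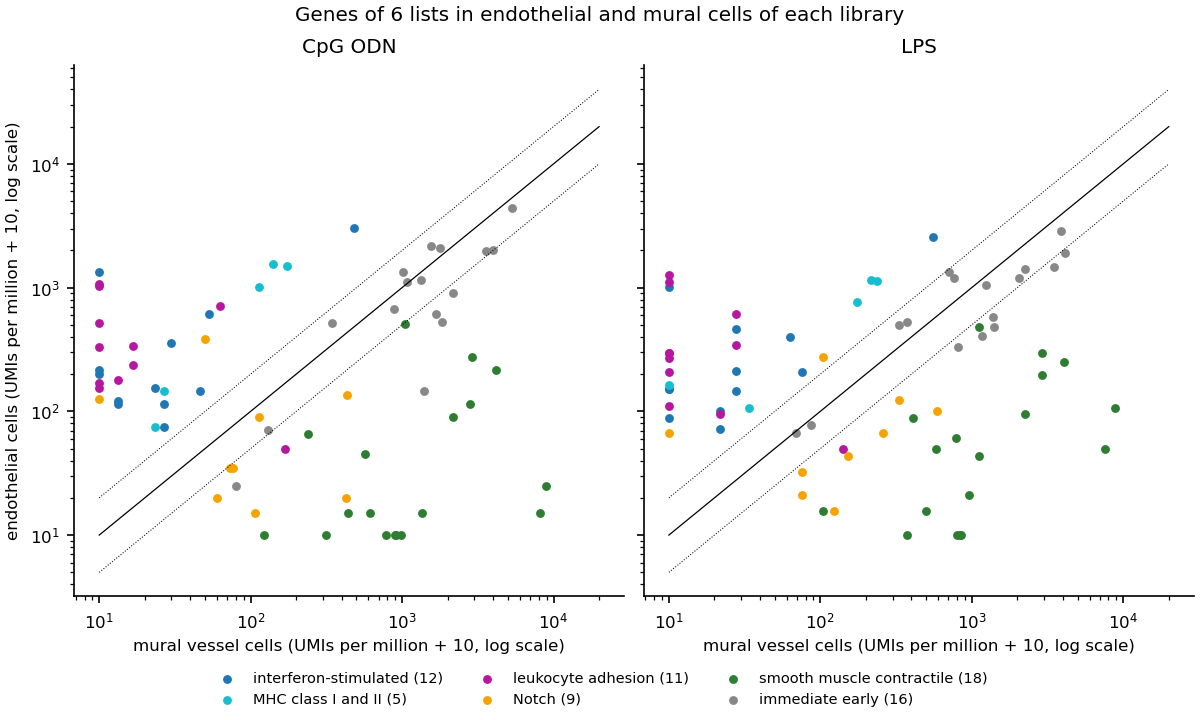
CPM plus 10 in mural vessel cells (horizontal, log axis) and endothelial cells (vertical, log axis) for the tested genes of 6 lists (coloured points), 1 panel per library, with a line at equal levels and dotted lines at 2-fold. The 12 interferon-stimulated and 5 MHC class I genes lie above the lines and the 18 contractile genes below equality in both panels, while the 16 immediate early genes lie on both sides of equality, and those past a dotted line lie below it.

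Few UMIs of the receptors of the applied ligands were found. *Tlr9* had 0 UMIs in the 66 endothelial and 77 mural vessel cells, which allows a share of up to 4.55% and 3.90% of cells with a UMI. *Tlr2* had 9 UMIs in 7 endothelial cells (10.6%) and 3 in 3 mural vessel cells, beside 28 of 271 fibroblasts, 43 of 3057 keratinocytes and 2 of 597 lymphocytes. The lymphocytes, of median depths 3241.5 and 3479 UMIs, were the nearest in depth to endothelial cells, and the share in fibroblasts was close to the endothelial one. *Tlr4* had 4 UMIs in 3 endothelial cells and 1 in 1 mural vessel cell. *Ly96*, which encodes the partner of TLR4 that binds LPS, had 23 UMIs in 16 endothelial cells (24.2%) and 0 in mural vessel cells. It was also found in 582 of 3057 keratinocytes, so free RNA could have given part of it, which was not tested. *Nfkbia*, an NF-kB target that restrains the pathway, had a UMI in 74.2% of endothelial and 84.4% of mural vessel cells, with a ratio of CpG ODN to LPS in endothelial cells of 1.08 (0.896 to 1.31).

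Between the ligands, 2094 genes had at least 30 UMIs in endothelial cells, of which 95 (4.54%) were 2-fold or more higher after CpG ODN and 73 (3.49%) after LPS. At the minimum of 30 UMIs an even split of 15 and 15 already has an interval from 0.456 to 2.20, so single genes of this depth carry little. Capillary genes stood out on the LPS side with 4 of 10 genes tested, against the 3.49% of all genes. Of the 4, *Timp4* (45.1 and 169 CPM after CpG ODN and LPS) reached the minimum of 30 UMIs through the LPS cells. *Cd36* had 25 UMIs in 4 of 43 CpG ODN cells and 125 in 7 of 23 LPS cells, a ratio of 0.178 (0.111 to 0.275). *Fabp4* had 0, 0 and 60 UMIs in the lowest, median and highest CpG ODN cell and 0, 4 and 213 in the LPS cells, with a ratio of 0.358 (0.310 to 0.413). *Rgcc*, a cell cycle regulator of capillary cells, had a ratio of 0.405 (0.265 to 0.608), and *Timp4*, a metalloproteinase inhibitor, 0.267 (0.111 to 0.576). Cells at 0 occurred in both libraries for each of these genes. The *Cd36*-led group, 6 cells after LPS and 3 after CpG ODN, held 147 of all 150 *Cd36* UMIs, 605 of 930 of *Fabp4*, 76 of 115 of *Rgcc* and 36 of 39 of *Timp4*.

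Pericyte genes rode in some of the same cells. *Rgs5* had 32 UMIs in CpG ODN endothelial cells and 386 in LPS endothelial cells, 13.6-fold higher in CPM after LPS, but all 32 and 383 of the 386 lay in the 4 and 4 cells with 8 or more mural UMIs. Without the cells that held 8 or more mural UMIs or 2 or more of *Dcn* and *Lum*, *Cd36* kept a ratio of 0.145 on 8 and 33 UMIs, *Fabp4* 0.302 and *Rgcc* 0.362. An endothelial cell and a pericyte in 1 droplet and an endothelial cell with attached pericyte RNA cannot be told apart here.

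Lymphatic genes lay on the CpG ODN side for 4 of 9 genes tested, against 4.54% of all genes, each found in at most 7 cells of a library. Of the 4, *Nts* (200.5 and 45.1 CPM after CpG ODN and LPS, 48 UMIs in all) reached the minimum of 30 UMIs through the CpG ODN cells. *Prox1* had 43 UMIs in 6 CpG ODN cells and 19 in 4 LPS cells, a ratio of 2.01 (1.15 to 3.66). Averaged over cells in place of UMIs, its ratio was 0.768, and that of *Ccl21a* was 0.752 against 2.01 over pooled UMIs. The direction of these 2 genes turned with how cells were weighted. *Mmrn1*, a lymphatic multimerin gene, had 199 and 123 UMIs and a ratio of 1.44 (1.14 to 1.82).

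Adhesion genes of inflamed venules depended on 1 LPS cell. *Selp* had 203 UMIs in 16 CpG ODN cells and 224 in 6 LPS cells, a ratio of 0.806 (0.663 to 0.979). *Sele* had 64 and 46 UMIs (1.24, 0.834 to 1.85) and *Icam1*, the ligand of leukocyte integrins, 140 and 106 (1.17, 0.906 to 1.53). Of 10 adhesion genes tested, 1 passed 2-fold, *Vcam1*, higher after CpG ODN on 34 and 15 UMIs (2.02, 1.07 to 3.98). The LPS cell of 24792 UMIs held 81.7% of the *Selp*, 82.6% of the *Sele*, 69.8% of the *Icam1* and 86.7% of the *Vcam1* of its library. With that cell and the *Glycam1* cell left out, the ratios were 3.72 for *Selp*, 6.52 for *Sele*, 3.36 for *Icam1* and 12.8 for *Vcam1*, so that *Selp* changed side. As a mean over cells, with each cell weighted alike, the ratios were 1.74, 2.95, 1.91 and 6.96.

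**Figure D4:**
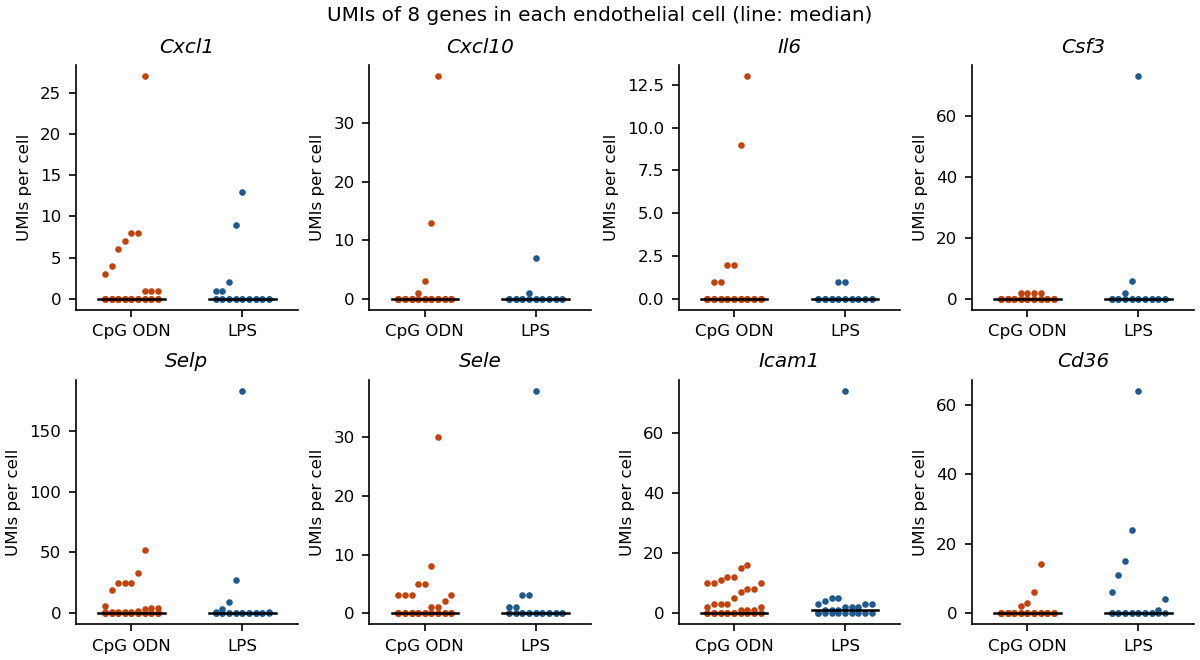
UMIs per cell (vertical axis) of 8 genes in each of the 43 CpG ODN and 23 LPS endothelial cells (points, overlapping at 0), with a line at the median. Most cells sit at or near 0, and 1 LPS cell holds 183 UMIs of *Selp*, 38 of *Sele*, 74 of *Icam1* and 73 of *Csf3*, far above the other LPS cells.

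Cytokine and chemokine genes were carried by few cells as well. Of 7 tested, 4 were higher after CpG ODN and 1 after LPS, against 4.54% and 3.49% of all genes. *Il6*, *Cxcl2*, *Cxcl10* and *Csf3* reached the minimum of 30 UMIs through the library where they were higher, so these counts are no support by themselves. *Il6* had 28 UMIs in 6 of 43 CpG ODN cells and 2 in 2 of 23 LPS cells, a ratio of 12.5 (3.14 to 107.8), and without the pair of large cells it was 11.6. *Cxcl1*, a neutrophil chemokine gene, had 66 and 26 UMIs (2.26, 1.41 to 3.70), of which those cells held 27 and 13, and the ratio without them was 2.48. *Cxcl2* had 26 and 8 UMIs, 21 of the 26 in the *Glycam1* cell, and its ratio of 2.89 became 1.04 without the pair. *Cxcl10*, an interferon-induced chemokine gene, had 55 UMIs in 4 cells and 8 in 2. *Csf3*, which encodes G-CSF, had 8 UMIs in 4 CpG ODN cells and 81 in 3 LPS cells, a ratio of 0.0878 (0.0367 to 0.181), and 8 and 8 UMIs remained without the pair, a ratio of 0.828.

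The remaining endothelial genes are those of the highest and lowest ratios among genes with at least 100 UMIs and a UMI in 25% of cells. *Ctla2a*, a protease inhibitor gene, had 0, 5 and 43 UMIs in the lowest, median and highest CpG ODN cell and 0, 3 and 48 in the LPS cells, with a ratio of 2.12 (1.74 to 2.61). *Slc6a6*, the taurine transporter, had a ratio of 2.34 (1.62 to 3.44). The stress factor gene *Atf3* had a ratio of 1.91 (1.46 to 2.50), *Lrg1* 1.85 (1.32 to 2.62), *Zfp36l2* 1.92, *Ppp3ca* 1.94 and the nuclear RNA *Malat1* 1.87. The cells of the libraries overlapped in range for each of them. *Clu*, clusterin, had a ratio of 2.94 (2.35 to 3.72) that became 1.54 without the top cell of each library. On the LPS side, *Lars2* and *Psmb3* had ratios of 0.438 and 0.445. *Mt1*, a metallothionein, had 21 and 155 UMIs, of which the large LPS cell held 126, and its ratio of 0.121 became 0.599 without the pair of large cells, while that of *Bgn*, 0.356, became 1.48.

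Of 4 pericyte genes tested, 3 were higher after LPS (*Kcnj8*, *Abcc9*, *Vtn*), against 3.49% of all genes. *Abcc9* and *Vtn*, with 30 and 43 UMIs in all, reached the UMI minimum through the LPS cells, so this count is no support by itself. All UMIs of these 2 genes lay in the *Cd36*-led group. Of the 18 and 42 UMIs of *Kcnj8*, 17 and 42 lay in cells with 8 or more mural UMIs. Of 9 venous genes, *Vcam1* was higher after CpG ODN and *Cpe* after LPS (80.2 and 383 CPM). Higher after CpG ODN were *Jag2*, 1 of 5 arterial and 3 Notch genes, *Pdgfa*, 1 of 2 PDGF genes, and the 2 high endothelial venule genes tested. *Jag2* and *Pdgfa*, with 33 and 38 UMIs in all, reached the UMI minimum through the CpG ODN cells. The venule genes were *Glycam1*, with all 4099 UMIs in 1 cell, and *Ccl21a*, with 1028 of 1139 UMIs in the lymphatic-like group. As a mean over cells the ratio of *Ccl21a* was 0.752. These counts are no support by themselves. Lists not named so far had counts of 0 or 1, against 4.54% and 3.49% of all genes, and nothing is read from them. Past 2-fold in either direction were 0 of 11 interferon-stimulated genes, 0 of 5 MHC class I genes, 0 of 7 VEGF and angiopoietin genes and 0 of 13 TGF-beta and BMP genes tested. *Ifitm3* had a ratio of 1.2 (1.06 to 1.36) and *H2-D1* 1.33 (1.11 to 1.60). Of 25 identity genes, 1 passed, *Clec14a*, with 67 UMIs after CpG ODN and 17 after LPS. Of 9 genes of vessel tone and clotting, 1 passed, *Thbd*, thrombomodulin, with 66 and 29. Of 11 basement membrane genes, *Col15a1* alone passed, with 50 and 20, and of 14 immediate early genes *Nr4a1* alone, higher after LPS with 27 and 57.

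In mural vessel cells, 2336 genes were tested, of which 83 (3.55%) were 2-fold or more higher after CpG ODN and 45 (1.93%) after LPS. Of 18 contractile genes, 0 passed 2-fold in either direction, a count near those shares of all genes, and their median log2 ratio was -0.01, equal to that of all genes tested. *Cnn1* had 272 and 133 UMIs and a ratio of 1.15 (0.929 to 1.42), and *Tagln*, a rule gene that encodes transgelin, 0.992 (0.944 to 1.04). Of 8 pericyte genes, 0 passed, and *Pdgfrb* had a ratio of 0.847 (0.587 to 1.23).

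The mural genes higher after CpG ODN included *Rasl11a*, with 261 UMIs in 29 of 61 cells and 38 in 12 of 16 (3.85, 2.73 to 5.57). *Mgp*, an inhibitor of arterial calcification, had 256 UMIs in 27 cells and 39 in 8 (3.68, 2.62 to 5.30), with 44.1% of the CpG ODN UMIs in 1 cell, and 2.72 without the top cells. *Csrp2*, a LIM protein gene of smooth muscle, had a ratio of 2.68 (2.06 to 3.52), *Ccn3* 2.06 (1.47 to 2.93) and *Dusp1*, a phosphatase that ends MAP kinase signalling, 2.43 (1.83 to 3.26). *Rasl11a* led the smooth-muscle-like group with 10 CpG ODN and 2 LPS cells, and *Csrp2* and *Ccn3* were leading genes of that with 16 and 3. *Klf2*, a flow-responsive factor, had 424 and 118 UMIs (2.02, 1.64 to 2.49). *Dusp1* was the 1 of 16 immediate early genes to pass.

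On the LPS side of mural vessel cells, *Bcr* had 51 UMIs in 22 of 61 cells and 124 in 12 of 16, a ratio of 0.231 (0.163 to 0.322), and 0.376 without its top cells. *Barx1*, a homeobox gene of the jaw and stomach mesenchyme, had 55 and 75 UMIs (0.411, 0.285 to 0.590), and 0 in endothelial cells. *Nrip2* had a ratio of 0.445 (0.306 to 0.646), *Anxa1*, annexin A1, 0.504 (0.341 to 0.743) and *Des* 0.548 (0.427 to 0.704). Of 6 Notch genes, 2 were higher after LPS, against 1.93% of all genes. They were the ligand gene *Jag1*, with 31 UMIs in 24 of 61 cells and 42 in 14 of 16 (0.414, 0.252 to 0.674), and the feedback gene *Nrarp*, with 19 and 24 UMIs (0.444, 0.230 to 0.846).

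*Bmpr2*, a BMP receptor gene, had 17 UMIs in 15 of 61 cells and 29 in 9 of 16 (0.329, 0.170 to 0.619). *Krt14*, an epithelial keratin gene, had 34 UMIs, spread over 23 cells, in the CpG ODN library and 8 over 5 cells in the LPS library (2.38, 1.08 to 5.96). Further mural differences rested on single cells. All 37 LPS *Cxcl2* UMIs lay in 1 mural vessel cell of 16743 UMIs, against 2 UMIs after CpG ODN. A CpG ODN cell of 3753 UMIs held 694 of 699 *Hbb-bs* and 147 of 148 *Hba-a1* UMIs, hemoglobin genes of red cells that passed 2-fold in 4 of 4.

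**Figure D5:**
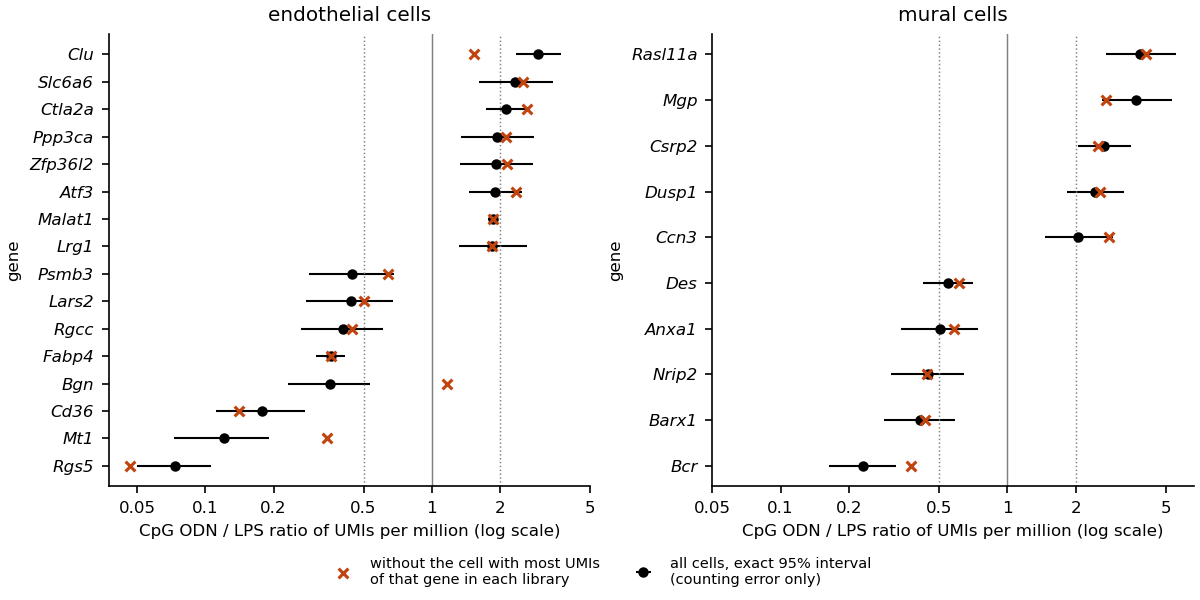
Ratio of CpG ODN to LPS in CPM (horizontal, log axis) with its 95% counting interval (black) for named genes in endothelial and mural vessel cells, and the ratio without the cell with the most UMIs of the gene in each library (crosses). *Cd36*, *Fabp4*, *Rgcc* and *Bcr* stay on the LPS side and *Ctla2a*, *Rasl11a* and *Csrp2* on the CpG ODN side, while *Bgn* moves from 0.356 to 1.17 and *Clu* from 2.94 to 1.54.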

How the data were processed

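Per the file headers, the authors deposited UMI counts of 32285 genes per barcode for each library, made with Cell Ranger 4.0.0 from Chromium 3′ reads. The genome build is not given in the sources used here. Levels are UMIs per 1000000 (CPM), or per 10000 in a cell, over the summed counts of a kind of cell. Ratios have exact conditional intervals, shares have Clopper-Pearson intervals, and the floor at 0 was 3 counts. Genes were called at 2-fold with at least 30 UMIs. Genes were named as rule genes and markers, as list members, as the 8 highest and 8 lowest ratios in endothelial and 5 and 5 in mural vessel cells (at least 100 UMIs, a UMI in 25% of cells of the higher library), and as the 10 most unequal genes a side between kinds (at least 200 UMIs). Endothelial and mural cells were clustered apart (8 principal components, 8 neighbours, Leiden, leidenalg 0.10.2, scikit-learn 1.9.0). Intervals used scipy 1.17.1. Scripts were tested on simulated data. Doublets were kept and no caller was run. Members, lists and tests were chosen with earlier results of these data known. Leaving out epithelial and *Krt17* barcodes from mural levels, and leaving out single cells, *Prox1* or *Mmrn1* cells and top cells, were chosen after seeing the data.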

Additional observations from a re-analysis of the deposited data

Results flagged for a closer look

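Outside the barcodes analysed, 6 CpG ODN barcodes with fewer than 800 detected genes met the endothelial sum with little *Krt5* and *Krt14*, against 0 in the LPS library. They were noted as endothelial signal in barcodes that no comparison above used.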

How the results depend on the processing

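No paired analysis was possible because there was 1 library per ligand. Of 70 alternatives for shares and gene counts, 60 stayed within counting error or 1.5 times, and each share did so throughout. Thinning cells to 1500 UMIs left 31 endothelial genes higher after CpG ODN and 17 after LPS of 466 tested, and 37 and 13 of 563 mural ones. With a minimum of 100 UMIs there were 6 and 19 of 527 in endothelial and 8 and 3 of 689 in mural vessel cells. Both settings test fewer genes. With all mural barcodes of the rule kept, 202 and 186 genes of 3063 passed. Of 471 alternatives for the ratios of 42 genes, 360 moved by less than counting error, 103 by more, and 8 turned the direction of a gene past 2-fold. A further 6 turned *Selp*, which was not past 2-fold (0.806). *Bgn* reached 1.12 without cells of another class, 1.12 without cells with *Prox1* or *Mmrn1*, 1.48 without the *Glycam1* and *Csf3* cells and 1.17 without its top cells. *Ccl21a* fell to 0.752 as a mean over cells and 0.845 thinned, and *Prox1* to 0.768 as a mean over cells and 0.946 without the deepest cells. The cause of these turns was not tested. *Cd36* stayed between 0.141 and 0.351, *Fabp4* between 0.241 and 0.644, *Rasl11a* between 3.59 and 5.83 and *Bcr* between 0.165 and 0.376, whereas *Selp* ran from 0.697 to 4.21. With 23 endothelial and 16 mural vessel cells, the LPS library sets the precision.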
